A study of Mus musculus with 24 samples.

Results

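The genes described here are 36 genes of glycolysis and of the response to low oxygen, taken as a fixed list of names: 17 glycolytic enzymes and 19 other oxygen-regulated genes. A member was matched to the array by its current symbol or a synonym. Of the 36 genes, 35 had a target ID, the name under which the array reports a transcript from 1 or several probes, and Pdk1 and Ndrg1 had a second one, which makes 37 of the 31483 target IDs. Ankrd37 had no matching target ID and is not analysed here. Values at all 4 stages were given for 31 genes. Hk2, Gapdh, Ldha and Ldhb had values at E9.5 and E11.5 alone. The enzymes carried the target IDs HK1, HK2, GPI1, PFKL, PFKM, PFKP, ALDOA, ALDOC, TPI1, PGK1, PGAM1, ENO1, ENO2 and PKM2 (Pkm), with the older names GAPD for Gapdh, LDH1 for Ldha and LDH2 for Ldhb. The other genes carried their own symbols, with NDRL and D530020C15RIK as the second IDs of Ndrg1 and Pdk1.

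Illumina mouse bead arrays had been hybridised with RNA from 24 C57BL/6 JAX samples, 3 wild-type and 3 heterozygous at each of 4 embryonic stages. In the heterozygotes (Cirh1a+/-) a β-Geo gene-trap interrupted 1 copy of Cirh1a, which encodes cirhin, a nucleolar protein needed to make the small ribosomal subunit. Whole embryos were taken at E8.5 and E9.5 and livers at E11.5 and E12.5, all from littermates genotyped on yolk sac. Homozygotes were not among the samples. Whether each RNA came from a single embryo or a pool is not given in the sources used here, so p-values measure the spread between these samples. In such bulk RNA, fewer cells of a type and less RNA per cell cannot be told apart.

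Glycolysis splits glucose into pyruvate, and lactate dehydrogenase turns pyruvate into lactate when the pathway runs without oxygen. The early mouse embryo relies heavily on this route before its circulation is established. When oxygen falls, prolyl hydroxylases (the Egln proteins) stop marking the HIF-1α protein for destruction, and HIF-1α with its partner ARNT binds short sites containing ACGTG or GCGTG and raises transcription of many glycolytic enzymes, glucose transporters, vascular factors and mitophagy receptors. HIF-1α itself is regulated mainly as a protein, so the level of its transcript is not a measure of its activity.

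The core of that binding site was looked for in the promoters of the members, because the list joins genes by a shared regulator. RefSeq promoter sequence of build GRCm38.p6 was at hand for 33 of the 36 genes, and the 250 bases before the most upstream start were searched on both strands for ACGTG and GCGTG. At least 1 match was found in 11 of 17 glycolytic enzymes (64.7%) and in 14 of 16 other oxygen-regulated genes (87.5%). The share was 38.6% among 27025 genes and 58.9% among the 10983 genes whose window had a GC content above 55%. ACGTG alone, with no GCGTG counted, was found in 5 of the 17 enzymes and 12 of the 16 other genes, against 16.5% of all genes and 21.8% of those above 55% GC. Hk1, Gpi1, Aldoa, Tpi1, Eno2, Pkm, Vegfa and Mxi1 had no match in this window. The 7 stretches below, of 60 bases each, come from members that the results return to. Capitals mark the matches, which read CACGT or CACGC where the motif lies on the other strand, and the capitals CACGTG in Ldha are 2 overlapping matches on opposite strands. A match is a run of letters and not a measured binding site.
Pgk1, chrX:106186940-106186999, plus strand: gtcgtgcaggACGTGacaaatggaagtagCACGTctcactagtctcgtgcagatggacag
Ldha, chr7:46845744-46845803, plus strand: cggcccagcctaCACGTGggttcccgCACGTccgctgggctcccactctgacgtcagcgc
Slc2a1, chr4:119108674-119108733, plus strand: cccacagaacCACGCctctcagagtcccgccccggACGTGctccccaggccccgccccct
Ddit4, chr10:59951836-59951895, minus strand: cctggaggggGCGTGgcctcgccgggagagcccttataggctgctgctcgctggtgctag
Egln3, chr12:54204054-54204113, minus strand: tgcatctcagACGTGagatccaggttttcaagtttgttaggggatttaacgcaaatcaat
Adm, chr7:110627557-110627616, plus strand: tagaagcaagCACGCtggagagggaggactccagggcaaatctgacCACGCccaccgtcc
P4ha1, chr10:59323123-59323182, plus strand: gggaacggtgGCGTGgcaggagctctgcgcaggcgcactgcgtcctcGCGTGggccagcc

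All values are the authors' log2 expression values. Arrays from E8.5 and E12.5 had a common distribution, while E9.5 and E11.5 each had their own, so a level at one of those stages is given as a percentile within the array. Arrays of a stage correlated at 0.981 or above, and the median standard error (SE) of a heterozygote difference was 0.22, 0.065, 0.091 and 0.16 in order of stage. Cirh1a was lower in every heterozygote than in every wild-type sample at E8.5, E9.5 and E12.5, by 0.95, 0.86 and 0.92 on the log2 scale. Its adjusted p in limma, in that order, was 0.802, 0.00771 and 0.669, and no E11.5 value was analysed. At E8.5 all 3 wild-type arrays carried the Y-linked transcripts Eif2s3y and Kdm5d and all 3 heterozygote arrays carried Xist, so genotype and sex cannot be told apart there. At E9.5 every array carried both kinds. In liver, Xist marked wild type 2, heterozygote 1 and heterozygote 3 at E11.5 and heterozygote 1 at E12.5. The erythroid marker score of E8.5 heterozygote 1 was -3.83, and the cardiac marker score of E11.5 heterozygote 3 was 2.15 (mean deviation from the stage mean, log2). The liver markers Afp, Apoa1 and Ttr lay at percentiles of 98.7 to 99.7 in both liver stages, although the target ID for albumin lay at 49.6 at E11.5, and visceral endoderm transcripts such as Amn were high in the E8.5 embryos (98.6).

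Most glycolytic enzymes lay high on these arrays, at every stage and in both tissues. In order of stage their median percentile was 86.3, 97.1, 96.5 and 94.0, over 13, 17, 17 and 13 genes. Over the 13 enzymes with values at all 4 stages it was 94.8 at E9.5 and 95.5 at E11.5. At E8.5, 6 of 13 lay above the 90th percentile, and Aldoc (13.7) and Pfkp (39.9) lay below the 50th. The other oxygen-regulated genes were more spread out, with medians of 72.2, 75.8, 77.8 and 72.5. Percentiles compare probes as well as genes, so the order of genes within an array is only a rough order of abundance.

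**Figure D1:**
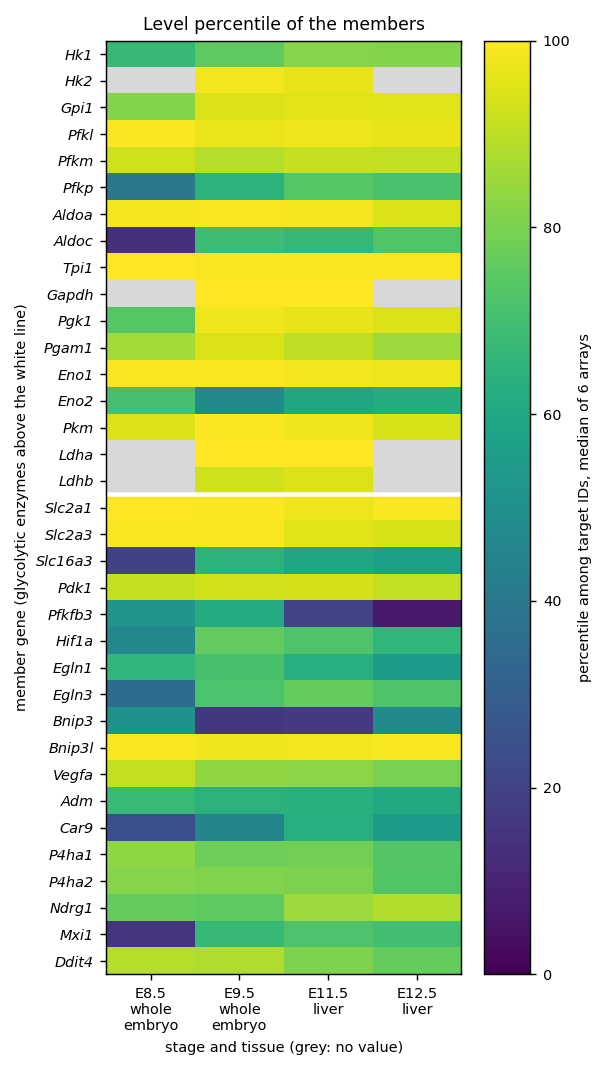
Level percentile of each member (rows) at the 4 stages (columns), as the median of 6 arrays, with colour from 0 to 100 and grey where no value was given. Most glycolytic enzymes above the white line are bright at every stage, and Aldoc, Pfkp, Hif1a, Egln3, Slc16a3 and Mxi1 are dark at E8.5 alone.

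The early steps of glycolysis held enzymes at the top of the array and others well below it. Hexokinase 2, which traps glucose in the cell, lay at percentile 98.3 at E9.5 and 96.7 at E11.5, above hexokinase 1 at 75.4 and 81.9. Hexokinase 1, the 1 hexokinase of the list with values at the other stages, was at 67.1 at E8.5 and 81.6 at E12.5. Glucose phosphate isomerase (Gpi1), the next enzyme, was at 81.3 at E8.5 and at 94.8 to 95.5 later. Of the phosphofructokinases, which catalyse the committed step, the liver type Pfkl lay at 96.8 to 99.3 over the 4 stages and the muscle type Pfkm at 88.7 to 92.8. The platelet type Pfkp lay between 64.7 and 73.8 at the 3 later stages and at 39.9 at E8.5. Aldolase A and triose phosphate isomerase (Tpi1) lay high throughout, Aldoa at 94.6 to 99.1 and Tpi1 at 99.0 to 99.8.

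The later steps of the pathway covered a similar span. Gapdh lay at 99.9 and 99.7 at E9.5 and E11.5, although its many processed pseudogenes make any single probe set for it uncertain. Enolase 1 lay between 97.4 and 99.5, whereas the neuronal enolase Eno2 lay between 47.4 and 70.5. A near-identical copy, Eno1b, could share the signal of Eno1. Pyruvate kinase (Pkm) ranged from 94.1 to 99.3, lactate dehydrogenase A lay at 99.8 and 99.6, and lactate dehydrogenase B at 92.7 and 94.6. Phosphoglycerate kinase (Pgk1) was at 97.9, 96.5 and 94.7 at the 3 later stages and at 73.5 at E8.5. Phosphoglycerate mutase (Pgam1) lay at 86.3, 94.6, 90.5 and 85.2 in order of stage.

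Among the oxygen-regulated genes outside the pathway, 3 lay at percentile 94.0 or above at every stage. The glucose transporter Slc2a1 lay between 97.6 and 99.8, Slc2a3 between 94.0 and 99.6, and the mitophagy receptor Bnip3l, which clears mitochondria from maturing red cells, between 97.9 and 99.0. Pyruvate dehydrogenase kinase 1 (Pdk1), which diverts pyruvate from the mitochondrion, lay between 90.8 and 93.7. The second mitophagy receptor, Bnip3, was at 16.4 at E9.5 and 16.6 at E11.5, and never above 51.3. Pfkfb3, which makes the activator of phosphofructokinase, was at 52.1 and 61.5 in the embryos and at 20.5 and 6.82 in the livers. Carbonic anhydrase 9, which exports acid, reached no more than 63.0.

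A group of members was low at E8.5 alone. Aldoc lay at percentile 13.7 there and at 66.8 to 73.0 at the other stages, and Mxi1, a repressor that opposes Myc, at 15.6 against 67.1 to 72.0. Slc16a3, the lactate exporter, Egln3, Pfkp and Hif1a followed the same course, with Hif1a at 46.2 against 65.7 to 75.8. All 6 genes that lay below the 50th percentile at E8.5 and above it at the other 3 stages were among the 19 members read by several probes, and none was among the 12 read by 1 probe. Over all target IDs above the 60th percentile at the 3 later stages, 14.3% of those with several probes and 1.46% of those with 1 probe lay below the 50th at E8.5. By that same cut at 60, these were 5 of 16 members with several probes and 0 of 9 with 1 probe. The part of the probes in the low E8.5 values of these members was not tested.

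E12.5 liver was compared with E8.5 whole embryo, the 1 pair of stages that shared a scale, in a limma fit of 12 arrays with genotype as a second term. Tissue, age and any batch of arrays cannot be told apart in it. A target ID entered if its mean lay above the stage median at E8.5 or at E12.5. Aldoc, Mxi1, Egln3, Pfkp, Hif1a, Slc16a3 and Car9 entered through E12.5 alone, and all of them were called higher. Bnip3 and Pfkfb3 entered through E8.5 alone. Entry and direction are therefore not independent for these genes. The shares over all target IDs come from the same filter. Of 31 members tested, 11 were higher in E12.5 liver (Benjamini-Hochberg adjusted p under 0.05) where 29.5% of all target IDs were, and 15 were lower where 44.5% were. Either way 26 of 31 were called, where 74.0% of all target IDs were, and 12 of 31 differences were positive, where 41.3% were. The median difference was -0.26 over the members and -0.25 over all target IDs. Glycolytic enzymes split into 5 higher and 7 lower, and the other oxygen-regulated genes into 6 higher and 8 lower. Markers moved in the same contrast: 8 of 9 hepatocyte markers were higher in liver and 6 of 6 cardiac markers lower, and their part in the members' differences was not tested.

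Both glucose transporters and 7 enzymes were lower in E12.5 liver. The neuronal and placental glucose transporter Slc2a3 was at 13.73 ± 0.15 (SD, n = 6) at E8.5 and 10.15 ± 0.10 at E12.5, a difference of -3.57 (SE 0.087). Slc2a1 went from 14.47 ± 0.12 to 13.53 ± 0.076. Aldoa differed by -1.89, Pfkl by -1.93, Eno1 by -1.84, Tpi1 by -1.64, Eno2 by -1.60 and Pfkm by -0.52. The E8.5 arrays ran from 13.54 to 13.90 (median 13.75) for Slc2a3 and from 12.13 to 12.48 (median 12.25) for Aldoa. All of them lay above the E12.5 arrays, at 10.05 to 10.28 (median 10.14) and 10.07 to 10.66 (median 10.34).

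Of the HIF targets outside the pathway, Ddit4, an inhibitor of mTORC1 signalling induced by stress, was at 8.76 ± 0.22 at E8.5 and 6.19 ± 0.37 at E12.5, a difference of -2.57 (SE 0.17). Its arrays ran from 8.496 to 9.046 and from 5.78 to 6.74, without overlap. The vascular growth factor Vegfa differed by -2.52. The collagen prolyl hydroxylase subunits P4ha1 and P4ha2 differed by -2.05 and -1.88, Pfkfb3 by -0.96 and the vasodilator peptide Adm by -0.77. These genes were thus 1.71-fold (Adm) to 5.95-fold (Ddit4) lower in liver on the authors' scale. The arrays of Adm and of Pfkfb3 overlapped between the stages. Pfkfb3 had a median E12.5 array of 1.62, below the stage median of 2.64, so its difference is not an exact size.

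Genes higher in E12.5 liver were led by Pgk1, at 5.53 ± 0.26 at E8.5 and 10.37 ± 0.13 at E12.5, a difference of 4.85 (SE 0.11). Its arrays ran from 5.17 to 5.99 and from 10.20 to 10.57, without overlap. Aldoc, the brain-type aldolase, differed by 3.70, Gpi1 by 3.32, Egln3 by 3.09, Mxi1 by 3.07, Pfkp by 2.74 and Hif1a by 1.60. Slc16a3 differed by 1.01 and Car9 by 0.84. The mean E8.5 levels of Aldoc (1.78), Mxi1 (1.75), Egln3 (2.19), Pfkp (2.33) and Hif1a (2.33) lay below the stage median of 2.65. Slc16a3 and Car9 lay below it too, with highest E8.5 arrays of 2.62 and 2.39. Whether such a level was above background was not analysed here, so the differences of these genes are the values on the authors' scale and not exact sizes. The 9 genes named so far as higher are each read by several probes. Hexokinase 1 and Ndrg1, a differentiation gene induced by hypoxia, are each read by 1 probe and differed by 2.96 (SE 0.11) and 2.60 (SE 0.16), and a second target ID of Ndrg1 by 2.68. Among the 12 members with 1 probe, 2 were higher and 7 lower, where 21.8% and 44.6% of target IDs with 1 probe were. Among the 19 with several probes, 9 were higher and 8 lower, where 41.4% and 44.5% were. This division by probe number was made after the values had been seen.

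Pkm, Pdk1, Bnip3, Bnip3l and Egln1 did not pass the threshold in this comparison, with differences of -0.12, -0.094, -0.19, 0.13 and -0.83. Pgam1, at -0.26 with an adjusted p of 0.0317, lost its call without any 1 of the 3 E8.5 wild types, E8.5 heterozygote 3, E12.5 wild types 2 and 3 and E12.5 heterozygote 1. Adm lost its call among wild-type arrays alone (-0.30), and Pfkfb3 among heterozygote arrays alone (-0.57).

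**Figure D2:**
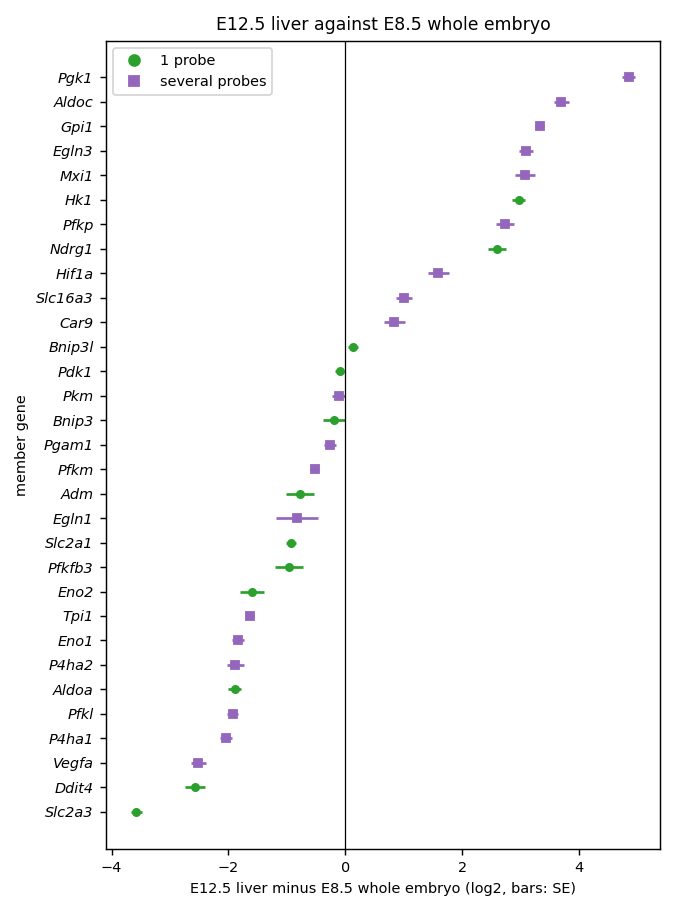
Difference between E12.5 liver and E8.5 whole embryo (log2, horizontal axis, bars are SE) for the 31 members with values at both stages, ordered by size, with circles for genes read by 1 probe and squares for several. Slc2a3 sits at -3.57 and Pgk1 at 4.85, and most of the points above 2 are squares.

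Heterozygotes were compared with wild type within each stage. No member passed an adjusted p of 0.05 at any stage. The number tested, of 36, was 24, 32, 33 and 29 in order of stage, since only target IDs above the median level of the stage entered a fit. Members short of that level are given only as values. At the same threshold limma called 0.0238%, 0.00635%, 0.0% and 0.0% of all target IDs in order of stage. At an unadjusted limma p under 0.05, the counts of members in order of stage were 3, 3, 1 and 2, where 3.77%, 11.1%, 2.63% and 3.86% of all target IDs were. That no member passed does not show that none differed, above all at E8.5 and E12.5, where the SE was larger. With 3 samples against 3 an exact permutation test of 1 gene cannot give a p under 0.1.

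**Figure D3:**
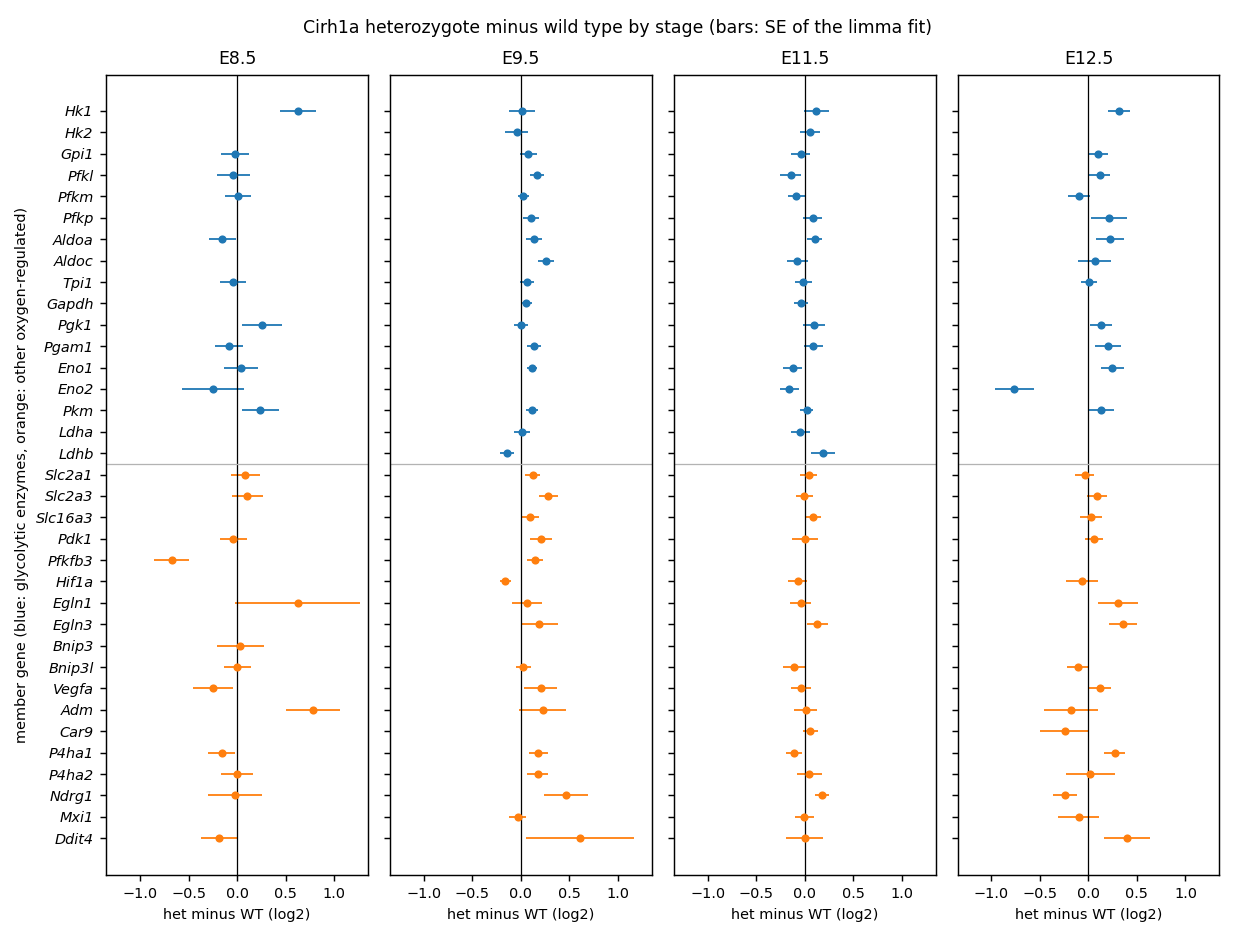
Heterozygote minus wild type (log2, horizontal axes) for each tested member at the 4 stages, with bars for the SE of the limma fit, glycolytic enzymes in blue and other oxygen-regulated genes in orange. Most points lie near 0, the E9.5 points lean to the right, and Eno2 at E12.5 lies at -0.76.

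Hexokinase 1, the first enzyme of the pathway, had the member difference with the smallest p in the average over stages. Its wild-type values at E8.5 were 3.93, 4.11 and 3.86 and its heterozygote values 4.28, 4.71 and 4.78. All 3 heterozygotes lay above all 3 wild types, with a difference of 0.63 (SE 0.19, adjusted p = 1.00). At E12.5 the wild types were at 7.03, 7.19 and 7.03 and the heterozygotes at 7.23, 7.48 and 7.49, again without overlap, with a difference of 0.32 (SE 0.11, adjusted p = 1.00). At E9.5 and E11.5 the groups overlapped and the differences were 0.010 and 0.12. The average over the 4 stages was 0.27 (SE 0.081, adjusted p = 0.586).

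Neuronal enolase (Eno2) went the other way. At E12.5 its wild-type values were 3.61, 3.58 and 3.62 and its heterozygote values 3.31, 2.61 and 2.61, a difference of -0.76 (SE 0.20, adjusted p = 0.993). Its level there was modest, at percentile 61.7. The differences at E8.5 and E11.5 were -0.25 and -0.16 with overlapping groups, and the average over stages was -0.29 (adjusted p = 0.826). Enolase 1, the main form, was higher in every heterozygote at E9.5, by 0.12 (SE 0.053), and at E12.5, by 0.25 (SE 0.12). Neither value reached an unadjusted limma p of 0.05. Its difference was -0.12 at E11.5.

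Groups without overlap were few at each stage. At E8.5 these were Hk1 (higher) and Pfkfb3 (lower) of 24 members, where 6.98% of all target IDs did not overlap. At E9.5 they were Eno1 (higher) and Hif1a (lower) of 32, where 17.6% did not. At E11.5 Ndrg1 was the one of 33, where the share was 8.19%. At E12.5 they were Hk1, Eno1 and P4ha1 (higher) and Eno2 (lower) of 29, where it was 7.13%.

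At E8.5 the differences of the glycolytic enzymes had a median of -0.023 over 11 tested, 5 of them positive. Those of the other genes had a median of 0.00011 over 13, with 7 positive, where 50.4% of all target IDs were positive. Pfkfb3 was at 3.10, 3.02 and 3.55 in wild type and 2.48, 2.57 and 2.61 in heterozygotes, a difference of -0.67 (SE 0.18, adjusted p = 1.00). Adm was at 4.26, 3.57 and 3.41 against 4.57, 4.82 and 4.197, a difference of 0.78 (SE 0.28), with heterozygote 3 below wild type 1. Egln1, an oxygen sensor, varied more between arrays than between genotypes, from 2.05 to 4.80 in wild type.

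Below the level filter at E8.5, Mxi1 read 1.32, 1.42 and 1.34 in wild type and 2.13, 2.14 and 2.17 in heterozygotes. These are values near the bottom of the array, at percentile 1.15 in wild type and 29.7 in heterozygotes. The stage difference of 0.79 passed the threshold when it was taken from the joint fit of all 24 arrays (adjusted p = 0.00831), which gives every stage the same spread. Without E8.5 the average effect on Mxi1 over the other stages was -0.045, against 0.16 with it. Slc16a3, also below the filter, was lower in every heterozygote, by 0.38.

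At E9.5 the differences leaned upward. Of 32 members 28 were positive, 14 of 16 enzymes and 14 of 16 other genes, where 50.0% of all target IDs were positive. The median was 0.071 for the enzymes and 0.18 for the other oxygen-regulated genes, against 4.9e-05 over all target IDs. The 2 members higher at an unadjusted limma p under 0.05 were the brain-type aldolase Aldoc (0.26, SE 0.084, adjusted p = 0.301) and Slc2a3 (0.28, SE 0.097, adjusted p = 0.326). Aldoc was at 7.49, 7.50 and 7.72 in wild type and 7.92, 7.69 and 7.88 in heterozygotes. Slc2a3 was at 13.75, 13.77 and 13.92 against 14.31, 14.08 and 13.90. In both genes 1 wild-type array overlapped the heterozygotes.

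Hif1a, the transcript of the oxygen-regulated subunit, was the 1 member lower at an unadjusted limma p under 0.05. It was at 8.68, 8.67 and 8.59 in wild type and 8.48, 8.57 and 8.41 in heterozygotes, a difference of -0.16 (SE 0.060, adjusted p = 0.371). All 3 heterozygotes lay below all 3 wild types. Hk2, Ldhb and Mxi1 were the other members with a negative difference, at -0.045, -0.14 and -0.032.

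The upward lean at E9.5 came largely, though not only, with a single array. Heterozygote 1 was the highest of the 6 arrays for 13 of 16 other oxygen-regulated genes and 10 of 16 glycolytic enzymes, where it was the highest for 19.9% of all 15741 target IDs tested. Left out, it took the count of positive differences from 28 to 20 of 32, and the median of the other oxygen-regulated genes from 0.18 to 0.033. The share of all target IDs with a positive difference was then 50.9%, against 11 of 16 enzymes and 9 of 16 other genes. Wild types 1 and 2 stood low. Their median deviation from the rest of the arrays was -0.093 and -0.13 for the enzymes and -0.18 and -0.20 for the other genes. No other single array brought the count below 24.

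Ddit4 shows that array most plainly. Its E9.5 values were 10.01, 9.85 and 11.60 in wild type and 12.34, 10.16 and 10.79 in heterozygotes, so heterozygote 1 was highest and wild type 3 second. The difference of 0.61 had an SE of 0.56, and it was -0.013 without heterozygote 1. Ndrg1 was at 8.12, 8.52 and 8.55 against 9.45, 8.40 and 8.75, with a difference of 0.47 (SE 0.23). Adm was at 6.98, 7.21 and 7.41 against 8.07, 6.92 and 7.28. Heterozygote 1 thus stood 0.66 to 0.73 above the next array in all 3 genes. For Egln3, Vegfa, Egln1 and P4ha1 it stood 0.32 to 0.37 above the next.

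**Figure D4:**
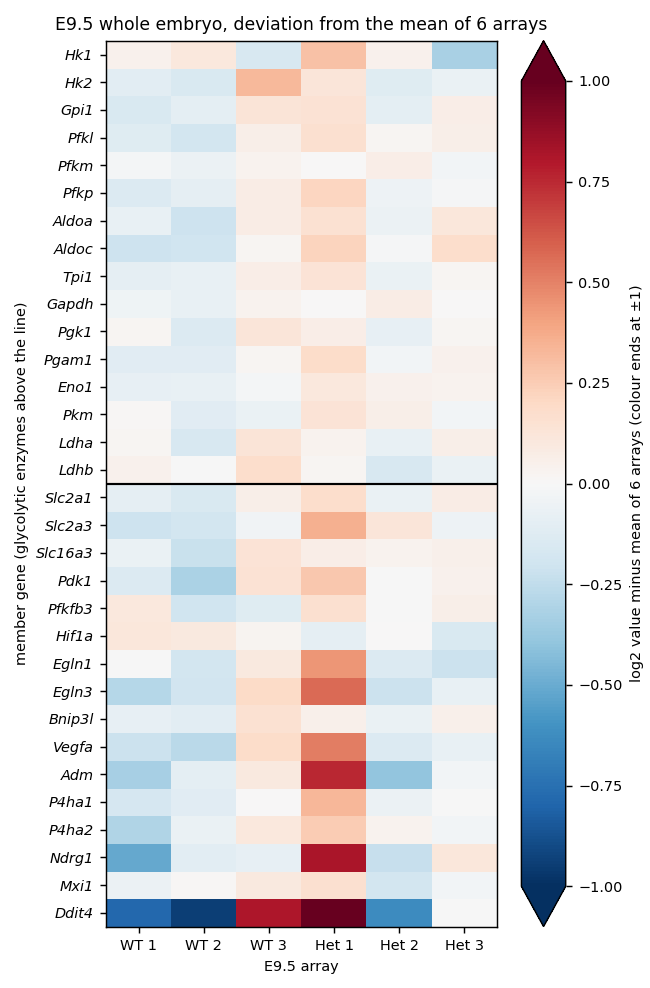
Deviation of each tested member from its mean over the 6 E9.5 arrays (log2, colour ends at 1 in both directions), with glycolytic enzymes above the line. Heterozygote 1 holds the highest value for 13 of the 16 genes below the line, and Ddit4 is also red in wild type 3.

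Some markers of other cells were also highest in that array. The mean deviation of 7 hepatocyte markers (of 10 listed) was 0.99 in heterozygote 1, 0.41 and -0.11 in the other heterozygotes, and -0.49 to -0.33 in wild type. All 7 had a positive difference, at an unadjusted limma p under 0.05, while the defining markers Alb, Ahsg and Serpina1a lay below the median level of the stage. The score of 6 visceral endoderm markers ran from -0.42 to -0.25 in wild type and from -0.013 to 0.83 in heterozygotes. It was again highest in heterozygote 1. Of these 6 markers 5 had a positive difference and 1 a negative one (-0.25), all at an unadjusted limma p under 0.05. Ttr is in both this list and the hepatocyte list. The score of 7 neural markers was lower in every heterozygote (-0.18 to -0.072) than in any wild type (0.072 to 0.14). Of these 7 markers 5 had a negative difference and 2 a positive one. The score of 4 megakaryocyte markers was also lower in every heterozygote (-0.21 to -0.099 against -0.0076 to 0.42), and all 4 differences were negative. In both the neural and the megakaryocyte list the lowest array was heterozygote 2 and not heterozygote 1. The mesenchyme score was lowest in heterozygote 1 (-0.12) and the cardiac score highest there (0.20), each with overlapping groups. The erythroid and endothelial scores also overlapped and had their extremes on other arrays. The part of these cells in the members' values was not tested.

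**Figure D5:**
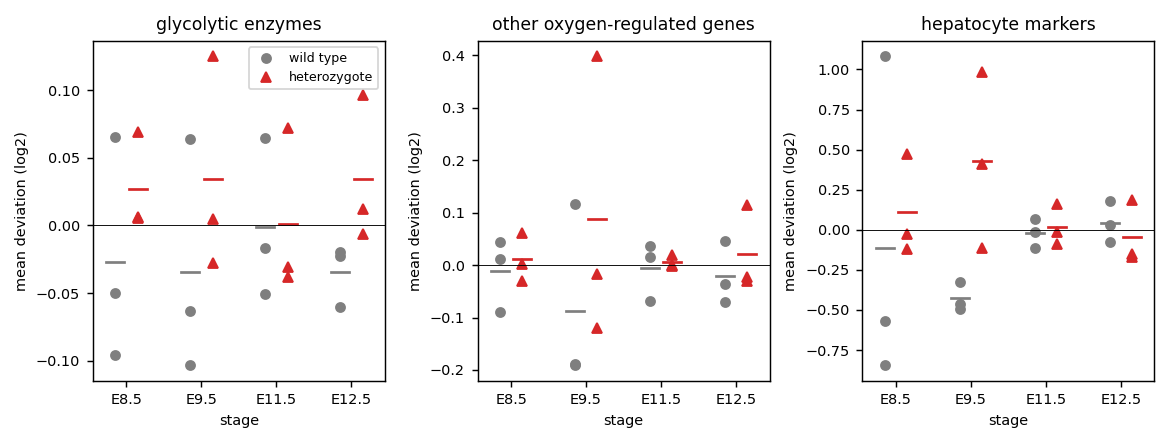
Mean deviation from the stage mean (log2, vertical axes) per array for the glycolytic enzymes, the other oxygen-regulated genes and the hepatocyte markers at the 4 stages, with wild type as grey circles, heterozygotes as red triangles and lines for group means. At E9.5 heterozygote 1 is the top point in all 3 panels, at 0.13, 0.40 and 0.99.

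At E11.5 the members had medians near 0. The median difference was -0.013 for 17 enzymes and 0.00054 for 16 other genes, with 16 of 33 positive where 49.6% of all target IDs were. The extremes among the enzymes were Ldhb and Eno2, both with overlapping groups. Ldhb was at 10.94, 11.15 and 10.64 in wild type and 11.19, 11.08 and 11.04 in heterozygotes, a difference of 0.19 (SE 0.12) that was 0.059 without wild type 3 and 0.31 without wild type 2. Eno2 was at 7.04, 7.37 and 7.18 against 7.03, 6.99 and 7.10, a difference of -0.16 (SE 0.097) that was -0.069 without wild type 2 and -0.24 without wild type 1. Ndrg1 was at 9.15, 9.23 and 9.15 in wild type and 9.38, 9.33 and 9.35 in heterozygotes, a difference of 0.18 (SE 0.071, adjusted p = 1.00). Its second target ID differed by 0.059 (SE 0.10), with overlapping groups. At E12.5 Ndrg1 differed by -0.24.

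At E12.5 the enzymes leaned upward more than the other genes did. Of 13 enzymes 11 had a positive difference, with a median of 0.13, and of 16 other genes 9, with a median of 0.022, where 50.7% of all target IDs were positive. The mean deviation of the enzymes was -0.061 to -0.019 in wild type and -0.0065 to 0.097 in heterozygotes, so the groups did not overlap. Endothelial markers also did not overlap there (-0.16 to -0.032 against 0.0030 to 0.22), and their part was not tested. Heterozygote 2 was the highest array for 7 of 13 enzymes and 7 of 16 other genes, where it was the highest for 17.8% of all target IDs tested. Without it the enzyme median was 0.073, and without heterozygote 1 it was 0.17.

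Other members with sizeable differences at E12.5 did not pass the test. Egln3 was at 5.33, 4.98 and 5.02 in wild type and 5.30, 5.64 and 5.45 in heterozygotes, a difference of 0.35 (SE 0.14). P4ha1 was at 5.38, 5.27 and 5.31 against 5.49, 5.77 and 5.51, a difference of 0.27 (SE 0.11) without overlap. Ddit4 was at 6.16, 5.78 and 6.03 against 5.90, 6.74 and 6.52, with a difference of 0.39 (SE 0.24) that was 0.22 without heterozygote 2 and 0.64 without heterozygote 1.

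Across the 4 stages the joint fit called 0 of 31 members for the average heterozygote effect, where limma called 0.0% of 16402 target IDs. At an unadjusted p under 0.05 there were 3: Hk1 (0.27) and Mxi1 (0.16) above 0 and Eno2 (-0.29) below, where 5.36% of all target IDs were. Positive averages numbered 24 of 31, against 50.3% of all. The heterozygote effect in liver less that in embryo was also called for 0 of 31, where 0.0061% of all target IDs were called. Adm (-0.59) and Mxi1 (-0.43) had an unadjusted p under 0.05, where 4.87% did, and 11 of 31 values were positive, where 48.7% were. Both contrasts draw on E8.5, where sex and genotype coincide. Of the genes tested at every stage, Hk1, Pgk1, Pkm and P4ha2 had a positive difference at all 4. However, Pgk1 at E9.5 (0.00014) and P4ha2 at E8.5 (0.00011) were next to 0. The share of all target IDs positive at all 4 stages was not computed, so these names have no background to be set against.

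The rest of the pathway was read from lists of 34 further isozymes and gluconeogenic genes and 43 further genes of oxygen sensing and its targets. None passed the threshold in a heterozygote comparison, and the smallest p-value over both lists was that of Slc2a2 at E9.5. There the liver glucose transporter Slc2a2 was at 6.67 ± 0.082 (SD) in wild type and 7.32 ± 0.31 in heterozygotes, a difference of 0.65 (adjusted p = 0.148 in limma) without overlap. At E11.5 Hif3a, which can act as a HIF inhibitor, differed by -0.29, and Ppp1r3c and Ak4, both HIF targets, by 0.35 and 0.22. At E12.5 the histone demethylase Kdm3a differed by 0.19. At E8.5 the placental growth factor Pgf differed by 1.41 (SE 0.50) and Hif1an, the asparagine hydroxylase of HIF, by 0.79.

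Between E8.5 embryo and E12.5 liver these lists moved in both directions, with 11 higher and 7 lower of 26 isozymes and 13 higher and 14 lower of 28 oxygen genes, where 29.5% of all target IDs were higher and 44.5% lower. The 3 with the smallest p were the VEGF receptor Flt1 (5.66), the demethylase Kdm4b (4.90) and the liver and red cell pyruvate kinase Pklr (4.93). Their E8.5 levels were 1.68, 2.74 and 2.10, where the median level of the stage was 2.65.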

How the data were processed

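The authors deposited a table of log2 expression for 31483 target IDs on 24 arrays. Their background correction and normalization are not given in the sources used here. A further 4 deposited tables hold 48 columns of signal and detection values whose names match no sample; these were not used, apart from probe identifiers, so no result was recomputed from unnormalized signal.

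Each stage was fitted with limma 3.58.1 (R 4.3.3; lmFit, eBayes), heterozygote minus wild type, on target IDs whose mean lay above the stage median, with two-sided p-values adjusted by Benjamini-Hochberg over all of them (threshold 0.05). A joint fit of 24 arrays gave the average effect and the liver minus embryo effect. The fit was tested on simulated data. For genes with 2 target IDs the one of higher mean level was used. Array scores are means of deviations from the stage mean. The number of arrays limits the precision.

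Members and lists were chosen with earlier results of these data known. Members are given array by array where they had an unadjusted p under 0.05 or the largest difference in either direction within a stage. The same was set for members past the threshold, but in E12.5 against E8.5 those are given by group means, array ranges or differences. Of the other pathway genes, the 3 of smallest p per fit are named, apart from 1 that is not reported here. Alternatives covered filters, scaling, variance models, array weights, a replicate block, sex and left-out arrays.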

Additional observations from a re-analysis of the deposited data

How the results depend on the processing

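Of 1225 recomputed values for 77 results, 1197 stayed within the limits set for calling a result the same. For a single gene that meant the same direction and side of the threshold, and for a count a similar size. For a median change or a level percentile it meant a shift smaller than the SD between arrays. Medians near 0 could thus change sign within the limit, as for the glycolytic enzymes at E11.5 (-0.062 to 0.034 with arrays left out). No member passed the threshold in a heterozygote comparison under any alternative but 1: with the E8.5 difference taken from the joint fit, the count of higher members was 1 (Mxi1). With arrays left out in turn, the median change at E8.5 of the other oxygen-regulated genes ran from -0.060 to 0.037, and that of the glycolytic enzymes at E12.5 from 0.073 to 0.17. Ranked among target IDs on all 24 arrays, the level percentile of the enzymes was 94.8 at E9.5 and 95.4 at E11.5. That ranking leaves out Hk2, Gapdh, Ldha and Ldhb, and without them the unchanged ranking gave 94.8 and 95.5. For E12.5 against E8.5, members with 1 probe alone gave 2 higher and 7 lower, an alternative chosen after seeing the data. Among single genes, the direction reversed for Mxi1 in the average without E8.5 (-0.045). It also reversed for Ddit4 at E9.5 without heterozygote replicate 1 (-0.013, with a range of -0.013 to 1.17 over left-out arrays). Cirh1a passed the threshold with a trended, robust variance at E8.5 (-0.95, adjusted p = 0.00843) and E12.5 (-0.92, adjusted p = 0.0346). At E9.5 it ranged from -0.91 to -0.78 with an array left out, and lost its call without any 1 wild-type array (adjusted p up to 0.0815). Pgam1 lost its call in the E12.5 comparison under 10 alternatives. The replicate block called 0 members in every heterozygote comparison and 11 higher and 15 lower in E12.5 against E8.5; it changed no call. Arrays of the same number correlated in their deviations at -0.39 to 0.18. These were not compared with arrays of different numbers, so whether the numbers pair the samples cannot be told from them. The Y-linked covariate could not be fitted at E8.5, where it follows genotype.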
